A study of Mus musculus with 4 samples.

Results

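The genes described here encode protein disulfide isomerases of the endoplasmic reticulum (ER) and related proteins with a thioredoxin fold, and were picked by name as a set of 10: P4hb, Pdia3, Pdia4, Pdia5, Pdia6, Txndc5, Txndc11, Erp44, Erp29 and Tmx1. The set was chosen with earlier results of these data known. A gene has a value where a probe set of the array lists it as its single gene, and this held for 8 of the 10, among 22180 named genes in all. Pdia4 is listed only on a probe set shared with Mir704, and Erp29 only on a probe set shared with Tmem116, so neither has a value of its own. The data are log2 expression levels from 4 arrays of primary mouse hepatocytes, which are liver parenchymal cells taken from the animal and cultured without passage. The groups were Chrebp-KO cells with fructose, Chrebp-KO cells without it (control), wild-type (WT) cells with fructose and WT cells without it, with 1 array each. The mice were males aged 2 months, and all cells were kept in serum-free medium for 16 h, with 25 mM fructose in the fructose groups. Chrebp, whose gene symbol is Mlxipl, encodes a transcription factor that responds to sugars. How the gene was disrupted, in which tissues, and how many animals gave the cells of an array are not stated in the labels. The design asks how fructose alters expression and how far this depends on Chrebp. Each group is a single array without replicates, so every difference below describes 2 arrays (or 4, for a difference of effects) and carries no test.

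Most secreted and membrane proteins acquire disulfide bonds while they fold in the ER. Protein disulfide isomerases make these bonds, break wrong ones and reshuffle them through cysteine pairs in thioredoxin-like domains, and they are themselves reoxidised by the ER oxidases of the Ero1 family and by peroxiredoxin 4. Hepatocytes secrete much of the protein of blood plasma. When unfolded proteins build up in the ER, the unfolded protein response, driven by the sensors IRE1, PERK and ATF6, raises the transcription of chaperones and of several protein disulfide isomerases.

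Each array had 10368 to 10447 genes over a background level of 4.76 (log2). This level is the 95th percentile of 1105 olfactory receptor genes, taken here as mostly silent in hepatocytes. A gene is called detected in a comparison if any array in it exceeded this level, and all 8 members were detected in every comparison. Of 13 hepatocyte markers with a value 12 were detected, with Alb, the albumin gene, at 12.58 to 12.66 (log2), while Ass1, a urea cycle gene, lay below the background on all 4 arrays. Not all of these markers were level with fructose: Tat, the tyrosine aminotransferase gene, was 4.02-fold higher in KO and 4.65-fold in WT, and Cps1, a urea cycle gene, 2.63-fold in KO and 2.65-fold in WT. Hnf4a, a hepatocyte transcription factor gene, differed by -0.50 in KO and -0.75 in WT (log2), and the 12 had a median of 0.13 in KO and 0.10 in WT. The part of this in the isomerase differences was not tested. Mlxipl had levels of 7.37 in KO fructose, 7.42 in KO control, 8.43 in WT fructose and 8.08 in WT control cells, so it was lower on the KO arrays but well above the background there, and the probe set may lie outside what was deleted.

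The promoters are shown because ER stress acts on some of these genes through known sequence elements and because most of the 8 members moved the same way. RefSeq start sites (GRCm38.p6) gave 13 windows for 9 of the 10 genes, each covering 250 bases before the start and 50 after it. The windows were searched on both strands. The ER stress response element, CCAAT and CCACG set 9 bases apart, was in the window of Pdia6 only, 98 bases before the start, against 0.119% of all 32851 windows. Its variant, ATTGG and CCACG set 1 base apart, was in none of the 13 windows and in 0.0365% of all. The unfolded protein response element core TGACGTGG was in a window of Txndc11, 102 bases before the start, and in 1 of the 3 windows of Txndc5, 138 bases before it, against 0.676% of all windows. The ATF4-type element TGATGNAAN was in another Txndc5 window (3.95% of all), and the E-box CACGTG, a motif of which ChREBP binds pairs, in a Txndc5 window (7.15% of all). CCACG alone, which is also part of the first element, was in 9 of the 13 windows (7 genes), against 32.8% of all windows. CCAAT alone was in 7 of the 13 (6 genes), against 37.4% of all. The windows of Erp44 overlap and hold the same CCACG and the same CCAAT, so both window counts include these sites more than once. The window of Tmx1 held none of these motifs. The 250 bases before the start of 5 members follow, 5′ to 3′ on the strand of the gene, with capitals marking the ER stress response element boxes in Pdia6, the CCACG and CCAAT boxes in P4hb, and TGACGTGG in Txndc11 and Txndc5. These 5 were picked by hand, and where a gene has several windows the one with the most marked motifs is shown. A match describes these letters only and is not evidence of binding, and no link between the motifs and the fructose differences was tested.
Pdia6, chr12:17266339-17266588, plus strand: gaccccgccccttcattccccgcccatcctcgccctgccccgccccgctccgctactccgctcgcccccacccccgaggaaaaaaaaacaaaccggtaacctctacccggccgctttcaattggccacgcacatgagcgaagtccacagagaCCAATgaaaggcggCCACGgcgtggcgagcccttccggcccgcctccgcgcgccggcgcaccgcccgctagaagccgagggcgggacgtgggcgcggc
P4hb, chr11:120573254-120573503, minus strand: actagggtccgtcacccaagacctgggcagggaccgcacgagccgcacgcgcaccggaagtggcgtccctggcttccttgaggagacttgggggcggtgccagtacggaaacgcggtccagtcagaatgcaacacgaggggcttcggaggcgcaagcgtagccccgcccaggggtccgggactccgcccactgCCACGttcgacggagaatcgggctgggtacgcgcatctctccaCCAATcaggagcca
Txndc11, chr16:11134533-11134782, minus strand: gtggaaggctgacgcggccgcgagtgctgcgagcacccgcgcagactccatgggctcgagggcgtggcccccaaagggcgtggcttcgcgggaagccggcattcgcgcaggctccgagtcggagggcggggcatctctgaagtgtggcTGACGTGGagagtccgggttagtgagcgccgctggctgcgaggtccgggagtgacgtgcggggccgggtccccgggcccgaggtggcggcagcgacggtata
Txndc5, chr13:38527915-38528164, minus strand: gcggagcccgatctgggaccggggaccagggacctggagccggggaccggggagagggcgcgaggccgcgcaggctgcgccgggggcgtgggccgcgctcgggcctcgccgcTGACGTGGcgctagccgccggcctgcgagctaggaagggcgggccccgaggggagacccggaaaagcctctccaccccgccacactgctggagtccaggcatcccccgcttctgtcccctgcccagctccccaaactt
Tmx1, chr12:70452904-70453153, plus strand: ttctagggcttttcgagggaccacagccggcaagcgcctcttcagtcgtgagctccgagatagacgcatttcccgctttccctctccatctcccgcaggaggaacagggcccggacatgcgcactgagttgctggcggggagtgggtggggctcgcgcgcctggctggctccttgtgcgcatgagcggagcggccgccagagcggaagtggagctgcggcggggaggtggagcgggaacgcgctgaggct

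Fructose was accompanied by higher levels of the main isomerases in both genotypes, and the difference was smaller in KO cells. P4hb encodes protein disulfide isomerase itself, which is also a subunit of collagen prolyl hydroxylase and of the microsomal triglyceride transfer protein. Its level was 11.32 in KO fructose, 10.55 in KO control, 11.61 in WT fructose and 10.54 in WT control cells. The 2 control arrays nearly coincided, and both fructose arrays lay above them. P4hb was thus 1.70-fold higher with fructose in KO cells (log2 difference 0.77) and 2.11-fold higher in WT cells (1.08).

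Pdia6, which encodes an isomerase that works with the chaperone BiP, had the largest fructose differences of the 8 members in both genotypes. Its level was 10.73 in KO fructose, 9.74 in KO control, 11.04 in WT fructose and 9.86 in WT control cells, with the fructose arrays well apart from the control arrays. It was 1.99-fold higher with fructose in KO cells and 2.27-fold higher in WT cells. Ranked from the largest positive difference, it stood 185th of 10752 detected genes in KO and 213th of 10814 in WT. The Pdia6 promoter is the one printed above with the ER stress response element, and a link between this element and the differences was not tested.

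Pdia3 encodes ERp57, the isomerase that acts on glycoproteins held by calnexin and calreticulin. Its level was 11.09 in KO fructose, 10.56 in KO control, 11.37 in WT fructose and 10.45 in WT control cells. Both fructose arrays lay above both control arrays, by 1.44-fold in KO and by 1.88-fold in WT.

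In Pdia5, Txndc11 and Erp44 the fructose difference in WT was more than 2 times that in KO on the log2 scale. Pdia5, which encodes an isomerase that has been linked to activation of ATF6 in human cells, had levels of 8.35 in KO fructose, 8.12 in KO control, 8.69 in WT fructose and 7.91 in WT control cells. The log2 difference with fructose was 0.24 in KO and 0.78 in WT, so the KO value was 30.0% of the WT value, the smallest share among the members above 0 in both genotypes. Txndc11 encodes a thioredoxin-domain protein of the ER membrane. Its level was 6.62 in KO fructose, 6.42 in KO control, 6.97 in WT fructose and 6.34 in WT control cells, with differences of 0.20 in KO and 0.63 in WT. Erp44 encodes a protein of the early secretory pathway that retains Ero1 oxidases and unassembled subunits. It had levels of 8.99 in KO fructose, 8.75 in KO control, 9.09 in WT fructose and 8.51 in WT control cells, with differences of 0.24 in KO and 0.58 in WT. In these 3 genes WT control was the lowest array and WT fructose the highest, and the 2 KO arrays lay between them. This order does not set them apart, since it also held in P4hb, Pdia3, Txndc5 and the mean of Tmx1. In Pdia6 KO control was the lowest array.

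Txndc5 and Tmx1 differed little between the arrays. Txndc5 encodes ERp46, an isomerase with 3 thioredoxin domains, and had levels of 9.05 in KO fructose, 9.07 in KO control, 9.22 in WT fructose and 8.97 in WT control cells. Its fructose and control arrays overlapped, with a difference of -0.01 in KO and 0.24 in WT. A single window of Txndc5 and a single window of Txndc11 hold the TGACGTGG core, and Txndc11 had the larger difference in WT. Tmx1 encodes a thioredoxin-like protein anchored in the ER membrane, and averaged 6.005 in KO fructose, 5.86 in KO control, 6.04 in WT fructose and 5.86 in WT control cells, a difference of 0.14 in KO and 0.18 in WT. This mean rests on 2 probe sets at very different levels. The brighter read 8.90 in KO fructose, 8.65 in KO control, 8.88 in WT fructose and 8.76 in WT control cells, and the dimmer read between 2.97 and 3.20, below the background on every array.

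**Figure D1:**
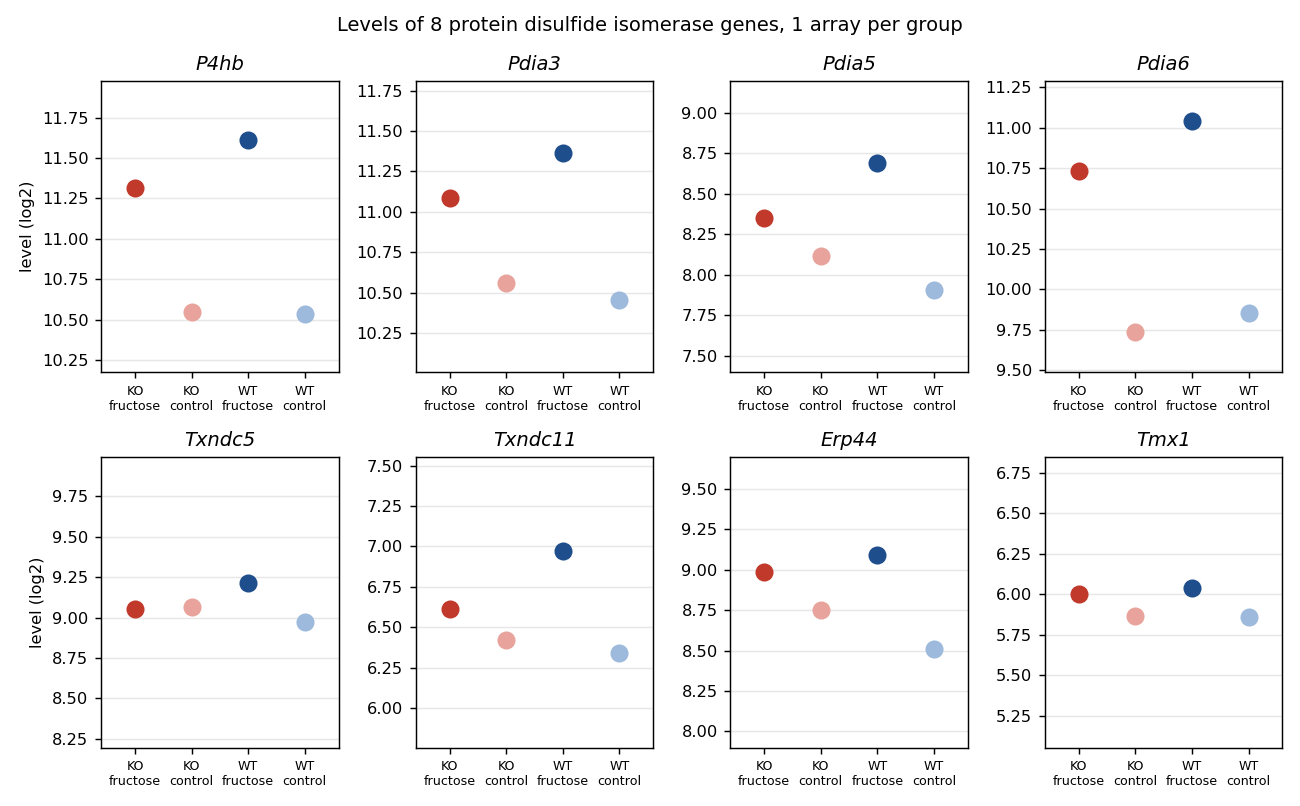
Level (log2, vertical axis, the same span in each panel) of the 8 members on the 4 arrays, 1 point per array. The fructose points of P4hb, Pdia3 and Pdia6 stand clear of the control points, whereas the 4 points of Txndc5 and of Tmx1 lie within 0.24 and 0.18 of each other.

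As a group, the members were above most genes with fructose. Because the set was chosen with earlier results of these data known, the shares of detected genes given beside it are descriptions only. In WT cells all 8 had a positive difference, with a median of 0.71 (range 0.18 to 1.18), while the median of 10814 detected genes was -0.03 and 47.5% of them were above 0. P4hb and Pdia6, 2 of the 8, were at least 2-fold higher, and none was 2-fold lower, where 3.1% of detected genes were 2-fold higher and 3.01% lower. At 1.5-fold, Pdia3, Pdia5 and Txndc11 joined them, which makes 5 of 8 against 9.46% of detected genes, and Erp44 stood just below that threshold at 1.497-fold. Ranked from the largest positive difference among detected genes in WT, P4hb was 267th, Pdia3 406th, Pdia5 566th, Txndc11 889th, Erp44 1032nd, Txndc5 2752nd and Tmx1 3260th. In KO cells 7 of the 8 had a positive difference, Txndc5 being the exception, with a median of 0.24 (range -0.01 to 0.99) against -0.004 for 10752 detected genes, of which 49.4% were above 0. None of the 8 reached 2-fold in either direction in KO, where 1.68% of detected genes were 2-fold higher and 1.18% lower. Pdia6 missed that threshold by less than 0.01 (log2), and P4hb and Pdia6 were the 2 of 8 that reached 1.5-fold, against 6.11% of detected genes. In KO P4hb ranked 344th and Pdia3 824th, while Pdia5 (2530th), Erp44 (2533rd), Txndc11 (2880th) and Tmx1 (3485th) lay further down, and Txndc5 was 5549th, near the middle of the 10752 genes. Over both genotypes, 7 of the 8 had both fructose arrays above both control arrays, a pattern found in 31.2% of 11050 detected genes.

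**Figure D2:**
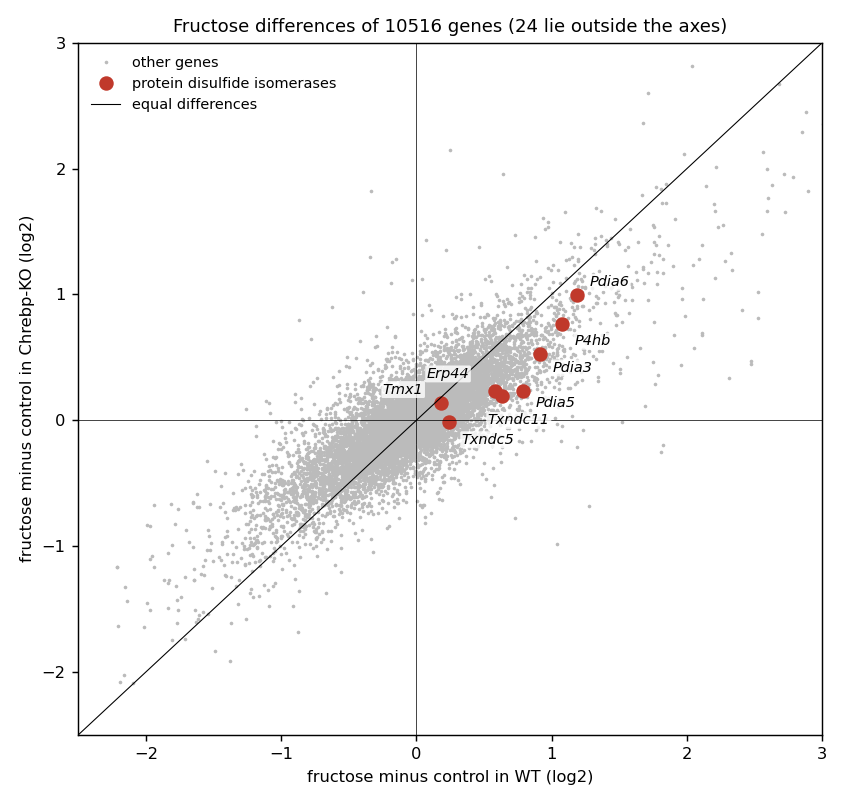
Log2 difference between fructose and control in Chrebp-KO cells (vertical axis) against that in WT cells (horizontal axis) for 10516 genes detected in both, of which 24 lie outside the axes, with 1 array per group. The 8 members (red) all lie below the line of equal differences, from Tmx1 at 0.14 and 0.18 to Pdia6 at 0.99 and 1.18 (KO, then WT).

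In fructose medium all 8 members were lower in KO than in WT, with a median difference of -0.29 (range -0.36 to -0.04) against 0.01 for 10688 detected genes, of which 47.5% were below 0. Txndc11 was 1.28-fold lower in KO, Pdia5 1.26-fold, Pdia6 1.24-fold, P4hb 1.23-fold and Pdia3 1.21-fold. None reached 2-fold, where 0.543% of detected genes were 2-fold higher in KO and 0.739% lower, and each of the 8 lay within the middle 95% of detected genes (-0.62 to 0.58). With the brighter Tmx1 probe set alone, Tmx1 was 0.01 higher in KO, which leaves 7 of 8 members lower. The pattern was not particular to the members. Of 12 detected genes of the BiP chaperone system 11 were lower in KO and 1 higher, with a median of -0.41. Of 8 further detected genes of the isomerase family 3 were lower and 5 higher, with a median of 0.12. The WT fructose array also enters the WT fructose difference, so all detected genes are an unmatched comparison here.

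In control medium the members were close to level between the genotypes. The median difference of KO from WT was 0.09 (range -0.12 to 0.24) against -0.01 for 10720 detected genes, and 7 of the 8 were above 0 (6 with the brighter Tmx1 probe set, for which the difference was -0.11), where 48.0% of detected genes were. Erp44 was 1.18-fold and Pdia5 1.16-fold higher in KO, Pdia6 was 1.08-fold lower, and P4hb differed by 0.01 (log2). None reached 2-fold in either direction, where 0.0373% of detected genes were 2-fold higher and 0.196% lower.

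**Figure D3:**
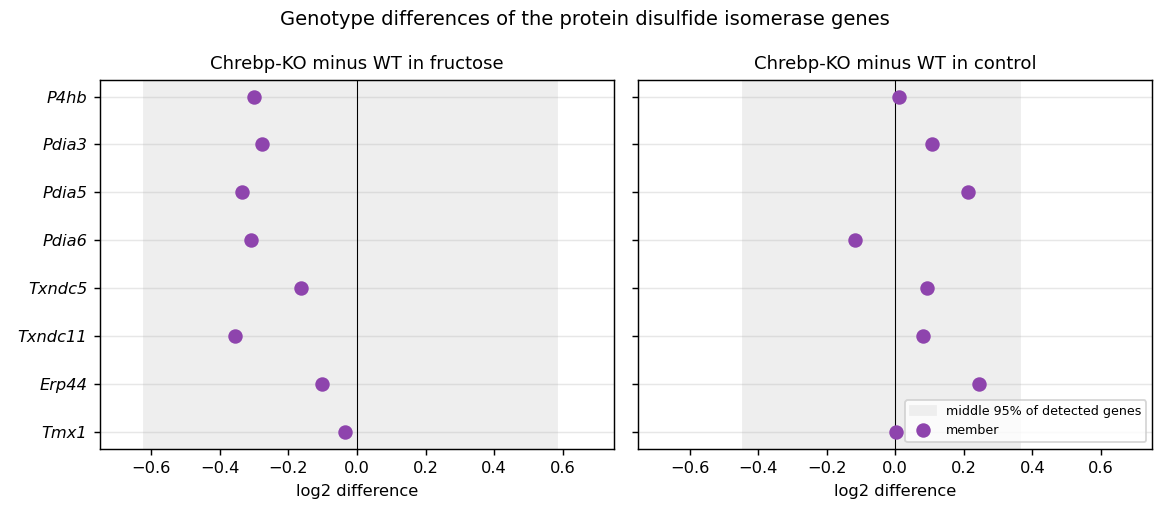
Log2 difference between Chrebp-KO and WT (horizontal axis) for the 8 members (rows, 1 point each), in fructose medium (left) and in control medium (right), with grey bands for the middle 95% of detected genes. In fructose medium all points lie left of 0, between -0.36 and -0.04, and in control medium between -0.12 and 0.24, all inside the bands.

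The difference of effects, KO minus WT, uses all 4 arrays and shares them with the comparisons above. It was below 0 for all 8 members (7 with the brighter Tmx1 probe set, for which it was 0.12), with a median of -0.33 against 0.03 for 11050 detected genes, of which 45.0% were below 0. Pdia5 had the lowest value, -0.55, followed by Txndc11 (-0.44), Pdia3 (-0.38), Erp44 (-0.35), P4hb (-0.31), Txndc5 (-0.26), Pdia6 (-0.19) and Tmx1 (-0.04). None reached a 2-fold difference of effects, where 0.443% of detected genes were 2-fold higher and 0.588% lower. WT fructose was the highest of the 4 arrays for all 8 members, again 7 with the brighter Tmx1 probe set, and for 31.1% of detected genes. Large fructose differences were fewer in KO over all detected genes: 6.1% were past 2-fold in WT and 2.9% in KO. Because the WT difference is subtracted, genes higher with fructose in WT then tend to fall below 0. All detected genes are thus an unmatched comparison. The difference of effects was also below 0 for all 12 detected genes of the BiP chaperone system, with a median of -0.61. Whether the members differ from other genes higher in WT was not tested. The share of the WT effect seen in KO, on the log2 scale, was 83.8% for Pdia6, 71.3% for P4hb, 57.8% for Pdia3, 40.4% for Erp44, 30.9% for Txndc11 and 30.0% for Pdia5. For Txndc5 it was -6.15%, since its KO difference was below 0. For Tmx1 it was 78.7% with the mean of both probe sets, whereas with the brighter one the difference was larger in KO (0.25) than in WT (0.13).

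Macrophage and endothelial markers also differed between the genotypes. In fructose medium 10 of 12 detected macrophage markers were lower in KO (median -0.57), and their summed linear level over 15 genes was 2937 in KO against 2602 in WT, most of it from Cd68 (11.22 in KO and 10.79 in WT, log2), which was higher in KO. In control medium 10 of 11 were lower in KO (median -0.36), with sums of 2792 in KO and 2992 in WT. Of the endothelial markers 8 of 9 in fructose (median -0.31) and 9 of 9 in control medium (median -0.41) were lower in KO. Their sums over 14 genes were 768 in KO and 982 in WT in fructose medium, and 776 in KO and 1059 in WT in control medium. Cd163, Vsig4 and C1qc lay below the background on all arrays, as did Stab2, Clec4g, Ptprb, Tek and Cd34, the 5 endothelial genes not detected. All 7 B and plasma cell markers with a value, which would reveal antibody-secreting cells rich in these isomerases, were below the background. So were 8 of 12 stellate cell and fibroblast markers and 5 of 7 cholangiocyte markers. The 2 detected cholangiocyte markers were far above it, Sox9 at 9.39 to 10.30 and Cldn3 at 10.07 to 10.97 (log2). With fructose Sox9 differed by 0.82 in KO and 0.47 in WT, and Cldn3 by -0.16 in KO and -0.90 in WT. In bulk RNA, fewer cells of a type cannot be told apart from less RNA per cell, and the part of other cells in the isomerase differences was not tested.

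Further genes of the isomerase family went both ways. Of 13 listed, 12 had a value and 8 were detected, of which 3 were above 0 and 5 below 0 with fructose in each genotype. Their median difference was -0.08 in KO and -0.23 in WT, and 1 of the 8 was at least 2-fold higher in WT. Tmx4, which encodes a membrane-anchored thioredoxin-like protein, was 1.66-fold higher in KO and 2.10-fold higher in WT. Tmx2, of the same membrane family, was lower with fructose, by a log2 difference of -0.71 in KO and -0.97 in WT. Selenof, which encodes an ER selenoprotein with a thioredoxin fold, differed by -0.34 in KO and -0.56 in WT. Agr2, Agr3, Erp27 and Selenom lay below the background on all arrays.

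The 2 Ero1 oxidases, which recharge the isomerases, had larger fructose differences than the 8 members with a value. The probe set that Pdia4 shares with Mir704 differed by more than either, 2.84 in KO and 3.39 in WT (log2). Ero1b had levels of 7.96 in KO fructose, 6.43 in KO control, 8.81 in WT fructose and 6.59 in WT control cells, 2.89-fold higher with fructose in KO and 4.69-fold in WT. Ero1a had levels of 8.77 in KO fructose, 7.71 in KO control, 9.33 in WT fructose and 7.89 in WT control cells, 2.07-fold higher in KO and 2.71-fold in WT. For both genes the fructose arrays stood apart from the control arrays. These were the only 2 of the 18 detected genes of oxidases and electron donors at 2-fold in either genotype, and the list had a median of 0.11 in KO and -0.15 in WT. Vkorc1l1, a vitamin K epoxide reductase paralogue, was higher by 0.13 in KO and 0.85 in WT. Prdx4, the peroxiredoxin of the ER, differed by 0.16 in KO and -0.14 in WT.

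Genes of isomerase partners, and of other ER proteins listed with them, went both ways. Calr, which encodes the lectin chaperone calreticulin that recruits ERp57, had levels of 11.77 in KO fructose, 11.03 in KO control, 12.06 in WT fructose and 11.01 in WT control cells, 1.67-fold higher with fructose in KO and 2.07-fold in WT. Canx, its membrane-bound counterpart calnexin, differed by 0.08 in KO and 0.15 in WT. P4ha1, the catalytic partner of P4hb in collagen prolyl hydroxylase, was 2.40-fold higher in KO and 2.29-fold in WT, so its difference was not smaller in KO. Mttp, the partner of P4hb in the triglyceride transfer protein that loads lipid onto apolipoprotein B, was 0.78 lower with fructose in KO and 0.73 higher in WT (log2). Cnpy2, a small ER protein of the saposin-like family, was lower by a log2 difference of -1.20 in KO and -1.22 in WT. Of the 14 detected genes of this list, 1 in KO and 2 in WT were 2-fold higher and 1 in each was 2-fold lower. The list had a median of 0.15 in KO and 0.36 in WT.

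The BiP chaperone system had the largest medians of the lists compared. Of its 12 detected genes 6 in KO and 9 in WT were at least 2-fold higher, with a median of 1.01 in KO and 1.65 in WT. Hspa5, which encodes BiP, had levels of 10.61 in KO fructose, 9.55 in KO control, 10.92 in WT fructose and 9.53 in WT control cells, 2.09-fold higher with fructose in KO and 2.63-fold in WT. Its pattern over the arrays was like that of P4hb, with control arrays that nearly coincided and WT fructose above KO fructose. Sdf2l1, a BiP cochaperone component, was higher by 3.08 in KO and 4.03 in WT, Creld2, an ER luminal protein with CXXC motifs, by 2.51 and 3.14, and Hyou1, a nucleotide exchange factor of BiP, by 1.87 and 2.63 (log2, KO then WT). Among 10 genes of the unfolded protein response itself, 1 in KO and 3 in WT were at least 2-fold higher. The median of the 10 was 0.18 in KO and 0.31 in WT, and 4 of them were below 0 in each genotype. Ddit3, the CHOP gene, was higher by 2.70 in KO and 3.19 in WT, Ern1, the IRE1 gene, by 0.62 and 1.41, and Atf6 by 0.52 and 1.04. Xbp1, the target of IRE1 splicing, differed by 0.26 in KO and 0.18 in WT at the level of the whole gene, which does not show splicing.

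Genes of secreted proteins rich in disulfide bonds, which are clients of the isomerases, did not share these differences. None of 17 detected was 2-fold apart with fructose, and the median was 0.02 in KO and -0.09 in WT. The largest differences in WT were in Proc, the protein C gene (-0.53 in KO and -0.75 in WT), Hp, the haptoglobin gene (-0.57 in KO and -0.59 in WT), and F10, the coagulation factor X gene (0.17 in KO and 0.56 in WT). Alb differed by 0.02 in KO and -0.05 in WT. The 9 control genes, used as a check of the scale, had medians of -0.03 in KO and 0.03 in WT. Single control genes ranged with fructose from -0.14 to 0.14 in KO and from -0.37 to 0.27 in WT. Between the genotypes (KO minus WT) they ranged from -0.34 to 0.25 in fructose medium and from -0.20 to 0.14 in control medium. Member differences of such sizes are therefore no larger than those of some control genes.

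**Figure D4:**
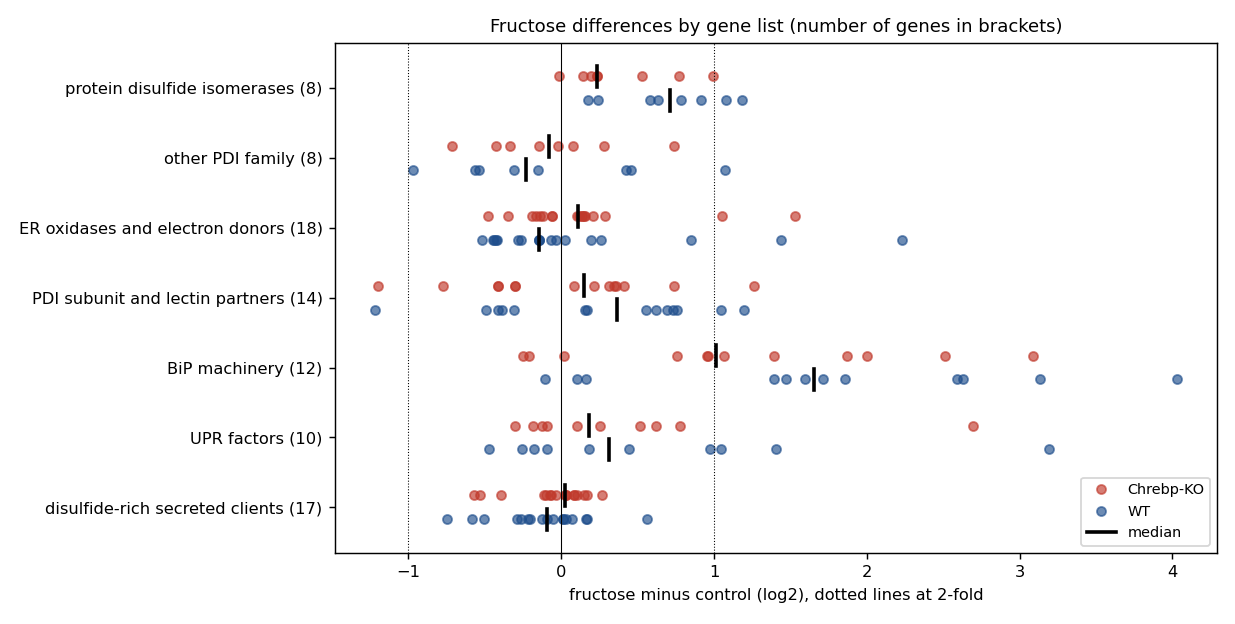
Log2 difference between fructose and control (horizontal axis, 1 point per detected gene) in Chrebp-KO (red, upper row) and WT cells (blue, lower row) for the 8 members and 6 related lists, with black bars at the medians and 1 array per group. The BiP genes reach furthest to the right, with medians of 1.01 and 1.65, the 8 members follow in WT with a median of 0.71, and the secreted clients are centred near 0.

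Among 11042 other detected genes, those whose levels over the 4 arrays were most like the median pattern of the members were Gorasp1, Golim4, Rab11fip3, Gins3 and Procr. The measure was the Euclidean distance between levels centred on the mean of the gene, which was 0.0458 for Gorasp1 and 0.0546 for Procr, the fifth. The members themselves lay between 0.0429 (Pdia5) and 0.614 (Pdia6) from this pattern. Gorasp1 differed by 0.32 in KO and 0.71 in WT with fructose, and Golim4 likewise by 0.32 and 0.71. The likeness is a description over 4 arrays.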

How the data were processed

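Log2 expression per probe set was deposited by the authors. They used RMA (robust multi-array average) with R 3.4.0, per the submitters' processing notes. RMA makes the distributions of the arrays alike, so a shift shared by all genes cannot be seen. The array annotation version and genome build: not given in the sources used here.

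Of 41345 probe sets, 23521 list 1 gene. Their symbols were updated by Entrez number through a RefSeq table (23328 matched), and log2 values were averaged per gene. Log2 values were subtracted in 5 comparisons, each with the fructose or KO arrays minus the control or WT arrays, and genes were counted at 2-fold. With 1 array per group nothing was tested, and the number of arrays limits precision. The calculations were tested on simulated data. Python 3.11.15, pandas 2.3.3 and statsmodels 0.14.6 were used.

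Members and lists were chosen with earlier results of these data known. The 8 members, Mlxipl, Hspa5, Xbp1, Ddit3, Ero1a, Ero1b, 3 genes per pathway list with the largest WT fructose difference, Tat as the hepatocyte marker with the largest one, and the 5 nearest patterns were named by rule. Others (Prdx4, Canx, Mttp, Alb, Cps1, Hnf4a, Agr2, Agr3, Erp27, Selenom, Ass1, Cd68, Sox9, Cldn3 and markers below background) were chosen after their values were seen. Of the control list, values of single genes are not given. Protein sequences were not used here.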

Additional observations from a re-analysis of the deposited data

Results flagged for a closer look

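Txndc5 had fructose differences of opposite sign in the genotypes, -0.01 in KO and 0.24 in WT, so the effect in KO minus that in WT was -0.26. The difference was not tested, and the KO value is close to 0.

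A probe set that no comparison uses, because it lists both Pdia4 and Mir704, was far brighter on the fructose arrays. It read 10.91 in KO fructose, 8.08 in KO control, 11.34 in WT fructose and 7.96 in WT control cells, a log2 difference of 2.84 in KO and 3.39 in WT. These differences exceed those of every member with a value, and the probe set does not show which of the 2 genes gave the signal. The probe set that lists Erp29 and Tmem116 differed by -0.12 in KO and -0.08 in WT.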

How the results depend on the processing

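The values were rescaled in 3 ways (centring on the median, quantile normalization once more, and loess with a span of 0.3). The dim filter was dropped, raised by 1 log2 unit or replaced by a floor at the background. Other alternatives were the brightest or the median probe set, thresholds of 1.5-fold and 3-fold, the mean for the median, and the list less its most different member. The number of members past 2-fold with fructose in WT, 2, became 5 at 1.5-fold and 0 at 3-fold. In KO, where it was 0, it became 1 (Pdia6) with median centring and 2 at 1.5-fold. The KO fructose median of 0.24 became 0.38 with the mean. In the other comparisons the count stayed at 0 and the median moved by under 0.1 under every alternative. Single members moved by at most 0.0614 under centring, quantile normalization and loess. The brightest probe set moved Tmx1 by up to 0.159: its fructose difference in KO became 0.25, its difference of KO from WT in control medium -0.11 and its difference of effects 0.12. With 1 array per group none could be left out, and the precision of every value is unknown.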
